A study of Mus musculus with 10 samples.

Results

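The 10 genes described here belong to the NRF2 pathway and were chosen by name: the regulators Nfe2l2 and Keap1, and the targets Nqo1, Srxn1, Txnrd1, Gclc, Gclm, Cbr1, Cbr3 and Ephx1, with glutathione transferases left out of the set. All 10 were found among the 31218 genes of the deposited table, and all 10 were among the 18065 genes that passed the filter on low counts. They were read in RNA-seq libraries of 10 mouse livers. In the Flox group were 5 livers of genotype Me1 flox/flox, and in the HKO group 5 livers of genotype Me1 Alb/Alb. The series text describes the HKO mice as lacking Me1 in hepatocytes. All mice had eaten a high-fat diet for 16 weeks. The other cells of the liver keep Me1 in a hepatocyte-specific knockout, and the labels do not name the Cre line, sex, age, litter or batch. Each library comes from whole liver tissue, so fewer cells of a type and less RNA per cell cannot be told apart.

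NRF2, the product of Nfe2l2, is a transcription factor that switches on genes against oxidants and reactive chemicals. In unstressed cells KEAP1 holds NRF2 in the cytoplasm and passes it to a ubiquitin ligase for destruction, so the activity of NRF2 is set largely at the protein level. When KEAP1 is modified by electrophiles, NRF2 enters the nucleus, pairs with a small MAF protein and binds the antioxidant response element. Many of its targets use NADPH, and Me1, the malic enzyme that makes NADPH in the cytosol, is itself a known NRF2 target in mouse liver.

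The promoter letters of the genes are shown first, because the response element has a known core. RefSeq windows of 300 bases (GRCm38.p6), from 250 bases before to 50 after each gene's start, were found for 9 of the 10 genes, with 11 windows in all. They were searched on both strands for the core letters TGACNNNGC. A match was present in 4 of the 9 genes, Nfe2l2, Srxn1, Gclm and Txnrd1, and in 14% of the 27025 genes with a window. Capitals mark the match in the windows of these genes and of Me1, and the windows of Nqo1 and Cbr3 are shown beside them because both genes rose in HKO livers and have no match.
Nfe2l2, chr2:75704614-75704913, minus strand: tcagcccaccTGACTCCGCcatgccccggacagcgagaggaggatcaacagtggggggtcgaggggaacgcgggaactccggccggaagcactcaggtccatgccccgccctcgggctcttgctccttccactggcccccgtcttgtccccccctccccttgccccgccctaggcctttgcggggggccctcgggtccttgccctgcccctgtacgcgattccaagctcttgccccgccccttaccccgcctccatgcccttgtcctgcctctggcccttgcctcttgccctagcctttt
Srxn1, chr2:152105274-152105573, plus strand: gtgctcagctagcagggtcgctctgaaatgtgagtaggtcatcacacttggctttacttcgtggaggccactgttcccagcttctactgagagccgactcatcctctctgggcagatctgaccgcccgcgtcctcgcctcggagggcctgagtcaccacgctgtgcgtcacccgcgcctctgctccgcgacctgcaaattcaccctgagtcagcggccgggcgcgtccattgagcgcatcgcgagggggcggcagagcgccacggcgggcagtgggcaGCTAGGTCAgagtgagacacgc
Gclm, chr3:122245307-122245606, plus strand: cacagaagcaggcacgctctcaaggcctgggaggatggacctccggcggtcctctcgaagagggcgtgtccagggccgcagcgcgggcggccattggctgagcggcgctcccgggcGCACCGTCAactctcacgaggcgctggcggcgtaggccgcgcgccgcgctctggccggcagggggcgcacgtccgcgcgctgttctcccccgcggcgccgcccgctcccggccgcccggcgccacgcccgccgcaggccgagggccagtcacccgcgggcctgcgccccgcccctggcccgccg
Txnrd1, chr10:82858956-82859255, plus strand: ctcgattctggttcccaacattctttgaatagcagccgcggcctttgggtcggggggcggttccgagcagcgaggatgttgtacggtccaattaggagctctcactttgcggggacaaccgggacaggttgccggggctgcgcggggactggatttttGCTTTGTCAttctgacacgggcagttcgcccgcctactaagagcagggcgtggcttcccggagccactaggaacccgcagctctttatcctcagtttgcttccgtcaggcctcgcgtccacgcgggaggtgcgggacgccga
Me1, chr9:86695865-86696164, minus strand: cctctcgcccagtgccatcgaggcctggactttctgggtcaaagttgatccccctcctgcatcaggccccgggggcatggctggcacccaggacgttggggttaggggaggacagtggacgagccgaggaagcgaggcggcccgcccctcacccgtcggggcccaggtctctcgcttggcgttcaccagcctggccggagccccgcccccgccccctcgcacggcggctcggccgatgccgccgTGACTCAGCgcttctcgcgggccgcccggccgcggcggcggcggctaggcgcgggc
Nqo1, chr8:107403156-107403455, minus strand: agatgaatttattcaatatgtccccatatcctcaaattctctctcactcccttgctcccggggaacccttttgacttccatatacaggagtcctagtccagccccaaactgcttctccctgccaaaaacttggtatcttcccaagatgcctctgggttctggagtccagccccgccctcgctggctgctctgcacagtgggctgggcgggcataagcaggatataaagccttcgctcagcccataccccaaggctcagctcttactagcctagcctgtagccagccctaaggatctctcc
Cbr3, chr16:93682969-93683268, plus strand: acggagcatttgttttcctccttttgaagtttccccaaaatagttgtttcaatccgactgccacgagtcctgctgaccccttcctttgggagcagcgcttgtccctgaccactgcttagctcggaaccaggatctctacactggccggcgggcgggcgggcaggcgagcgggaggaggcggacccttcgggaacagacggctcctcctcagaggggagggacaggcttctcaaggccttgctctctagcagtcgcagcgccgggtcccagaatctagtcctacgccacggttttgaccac
The match began 240 bases before the start in Nfe2l2, 134 before it in Gclm, 92 before it in Txnrd1 (the window of an inner start site) and 6 before it in Me1, and at base 29 after it in Srxn1. The windows of Cbr1, Ephx1 and Keap1 also had no match to these letters, though that of Keap1 had one to the looser letters TGANNNNGC, which 45% of all genes had. The windows of Cbr1 (chr16:93607587-93607886) and Ephx1 (chr1:181017520-181017819) lie inside the deposited spans of these genes. The outer starts of those spans were not searched. A match is a string of letters and not a shown binding site, and elements outside the window were not searched.

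Depth was similar in all livers, at 52790000 to 60765120 counts, and the 10 genes had between 32 and 43729 counts in a liver. Me1 fell in every HKO liver, from 145 to 228 CPM (counts over the library total scaled by TMM factors and set to a common total) in Flox to 20.5 to 26.9 CPM in HKO, so each library matched its label. Markers of hepatocytes summed to 101000 to 117000 CPM in Flox and 69800 to 87100 CPM in HKO, with 4 of 10 lower and 0 higher. HKO 4 and HKO 5 stood apart: they held 373 and 406 CPM of 14 epidermal markers and 316 and 341 CPM of 11 skeletal muscle markers, where the other 8 livers held at most 9.52 and 6.16 CPM. Cholangiocyte markers summed to 65.9 to 84.1 CPM in Flox and 99.9 to 142 CPM in HKO, with 3 of the 7 tested higher and 0 lower. Macrophage markers overlapped between the groups, at 228 to 440 CPM in Flox and 340 to 424 CPM in HKO, with 4 of 10 higher, as did stellate and fibroblast markers, with 4 of 8 higher. The part of these cell types in the results below was not tested, except where values without HKO 4 and HKO 5 are given.

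In Flox livers the 10 genes spanned a wide range of levels per gene length. On the FPKM scale, which allows levels of different genes to be compared, Ephx1 was highest at 177 ± 28.8 and Gclc second at 63.0 ± 18.1 (mean ± SD, n = 5), in 5 of 5 Flox livers. Srxn1, Gclm, Cbr1, Nfe2l2 and Txnrd1 followed with means of 24.1, 19.5, 17.4, 17.4 and 16.4 FPKM, and the ranges of neighbours in that order overlapped. Keap1 at 8.04 ± 0.645, Nqo1 at 3.01 ± 0.865 and Cbr3 at 0.549 ± 0.253 FPKM were each below the gene before in 5 of 5 Flox livers. Nqo1, a widely used reporter of NRF2 activity, and Cbr3 were the lowest of the set in Flox livers, and in HKO livers their means reached 10.9 and 9.21 FPKM, above the 8.88 FPKM of Keap1.

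Nqo1, Cbr1 and Cbr3, which encode reductases of quinones and carbonyls, rose in HKO livers, and neither regulator passed the test. Of the 10 genes 3 were higher, 0 were lower and 7 did not pass (edgeR, adjusted p under 0.05 over all tested genes). Of all tested genes 4.86% were higher and 6.4% lower by this rule. Calls over all genes were thus 43.2% higher, a share that became 53.2% with DESeq2 and 89% with limma on log2(FPKM + 0.5). A direction is therefore read here on the TMM scale. For the 10 genes and the other pathway genes named, the FPKM value is given where the direction turned. In the same 3 genes the lowest HKO liver was above the highest Flox liver, which held in 4.41% of tested genes. The median log2 fold change of the 10 genes was 0.42, against 0.016 over all tested genes. At an unadjusted p under 0.05 the same test had 5 of the 10 higher and 0 lower, and DESeq2 called 5 higher and 0 lower. Earlier results of these data were known when the genes were chosen, so these counts describe them and nothing more.

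**Figure D1:**
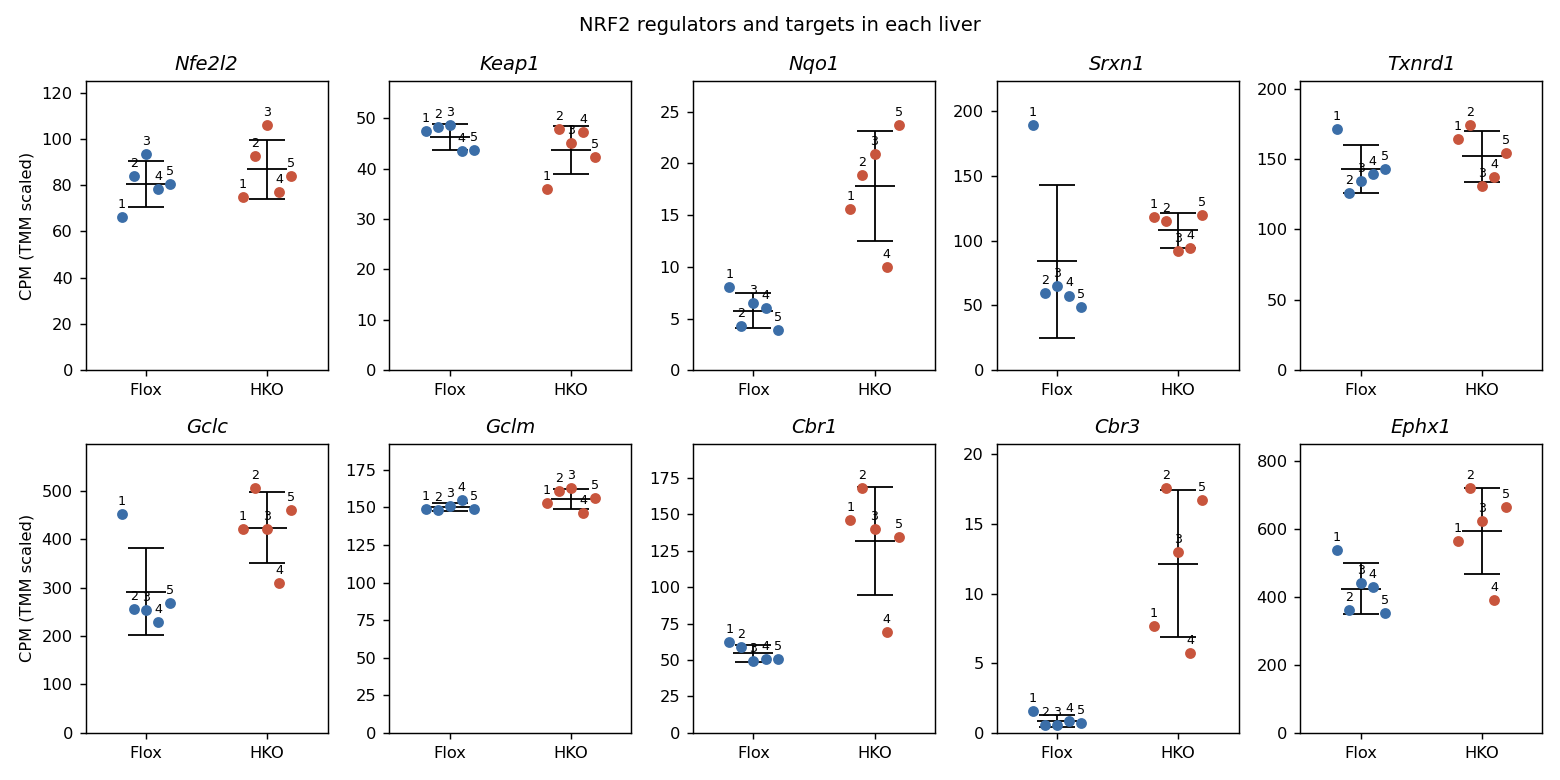
CPM of the 10 genes in each liver (points, labelled with the liver's number), with mean and SD of each group of 5 as black bars; each vertical axis starts at 0. Nqo1, Cbr1 and Cbr3 have no overlap between the groups, and Flox 1 stands above the other Flox livers in Srxn1 and Gclc.

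The regulators were close to level between the groups. Nfe2l2 (chromosome 2, 75675513 to 75704641) stood at 66.3, 84.1, 93.4, 78.3 and 80.6 CPM in Flox 1 to 5 and at 74.9, 92.5, 106, 77.1 and 84.0 CPM in HKO 1 to 5. The groups overlapped, with HKO 3 alone above every Flox liver. Its log2 fold change was 0.11, with a 95% interval of -0.13 to 0.35 (SE 0.11, edgeR adjusted p = 0.574). Keap1 (chromosome 9, 21229730 to 21239361) stood at 47.4, 48.3, 48.6, 43.5 and 43.6 CPM in Flox and at 36.0, 47.8, 45.1, 47.2 and 42.2 CPM in HKO. HKO 1 was the lowest of the 10 and HKO 5 next, and the other 3 HKO livers lay within the Flox range. Its log2 fold change was -0.08, with an interval of -0.26 to 0.09 (SE 0.08, edgeR adjusted p = 0.551). The direction of Keap1 turned when FPKM values were used as deposited (log2 fold change 0.13, limma adjusted p = 0.38), a scale on which the median of all genes stood at 0.145 instead of 0.016.

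The ratio of inhibitor to activator transcript was also compared within each library, where scaling has no part. Keap1 made up 36.6, 31.7, 29.6, 31.0 and 30.4% of the summed FPKM of Keap1 and Nfe2l2 in Flox 1 to 5, and 28.0, 29.4, 25.7, 33.1 and 28.9% in HKO 1 to 5. Of the HKO livers, 4 lay below every Flox liver and HKO 4 lay among them. The means were 31.9% ± 2.75 and 29.0% ± 2.70 (SD, n = 5 each; exact permutation p = 0.135, also 0.135 adjusted over 3 shares, two-sided). Without HKO 4 the difference was -3.87 percentage points and passed (exact permutation adjusted p = 0.0238).

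Nqo1 (chromosome 8, 107388225 to 107403206), the quinone reductase that spends NADPH or NADH to turn quinones into less reactive hydroquinones, rose 3.1-fold. Flox 1 to 5 held 8.08, 4.31, 6.48, 6.04 and 3.86 CPM and HKO 1 to 5 held 15.6, 18.9, 20.9, 9.99 and 23.7 CPM. Every HKO liver was above every Flox liver, and HKO 4 came closest to Flox 1. The log2 fold change was 1.63 (95% interval 1.07 to 2.19, SE 0.26, edgeR adjusted p = 0.00323). It ran from 1.51 to 1.81 in the 20 alternative settings and passed in all 20, including the fit without HKO 4 and HKO 5.

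Srxn1 (chromosome 2, 152105516 to 152109322), sulfiredoxin, which repairs overoxidized peroxiredoxins, had a result that turned on Flox 1. Its level was 189 CPM in Flox 1 and 59.6, 65.1, 57.6 and 48.9 CPM in Flox 2 to 5, and 118, 115, 92.2, 93.9 and 120 CPM in HKO 1 to 5. Flox 1 exceeded every other liver, and all 5 HKO livers exceeded the other 4 Flox livers. With all livers the log2 fold change was 0.36 (95% interval -0.42 to 1.14, SE 0.35, edgeR adjusted p = 0.559). Without Flox 1 it was 0.90 and passed (edgeR adjusted p = 0.0011), and it passed in 1 of the 20 alternatives in all. Txnrd1 (chromosome 10, 82833951 to 82897712), the cytosolic thioredoxin reductase, held 171, 126, 134, 139 and 143 CPM in Flox and 164, 174, 131, 137 and 154 CPM in HKO. The groups overlapped, and the log2 fold change was 0.09 (95% interval -0.13 to 0.31, edgeR adjusted p = 0.615).

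Gclc and Gclm encode the catalytic and modifier subunits of glutamate-cysteine ligase, which makes the precursor of glutathione in its rate-limiting step. Gclc (chromosome 9, 77754535 to 77794485) held 451, 256, 254, 229 and 269 CPM in Flox 1 to 5 and 420, 506, 421, 309 and 461 CPM in HKO 1 to 5. Flox 1 lay within the HKO range, and the other 4 Flox livers lay below all HKO livers. The log2 fold change was 0.54 (95% interval 0.12 to 0.95, SE 0.19) and did not pass (edgeR adjusted p = 0.095), while without Flox 1 it was 0.75 and passed (edgeR adjusted p = 0.00481). It passed in 5 of the 20 alternatives, DESeq2 among them. Gclm (chromosome 3, 122245557 to 122270732) was among the steadiest of the genes, at 149, 148, 151, 155 and 149 CPM in Flox and 153, 161, 163, 146 and 156 CPM in HKO. Its log2 fold change of 0.05 had a 95% interval of -0.06 to 0.17 (edgeR adjusted p = 0.555). An antisense gene, Gm17494, overlaps Gclm and held up to 2153 counts in a liver where Gclm held at least 7384, and no source used here says whether strand was used in counting.

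Within each library Gclc made up 83.5, 74.3, 73.7, 71.2 and 75.1% of the summed FPKM of both subunits in Flox 1 to 5, and 82.1, 84.0, 81.2, 77.9 and 83.2% in HKO 1 to 5. Apart from Flox 1, every Flox liver lay below every HKO liver. The means were 75.6% ± 4.67 and 81.7% ± 2.36 (SD, n = 5 each), a difference of 6.08 percentage points that did not pass after adjustment (exact permutation p = 0.0397, adjusted p = 0.0595 over 3 shares). Without Flox 1 the difference was 8.07 points and passed (exact permutation adjusted p = 0.0238), as it did without HKO 4 (7.03 points, exact permutation adjusted p = 0.0397).

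**Figure D2:**
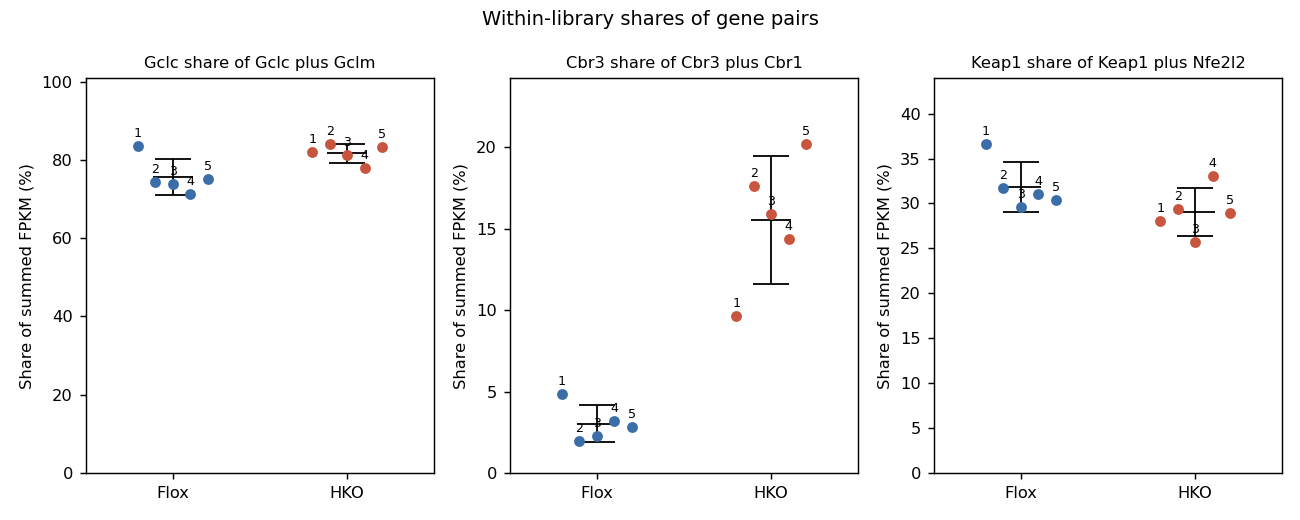
Share of 1 gene in the summed FPKM of a pair, in percent, in each liver (points, labelled with the liver's number), with mean and SD of each group of 5 as black bars and axes that start at 0. The Cbr3 share runs from 1.94 to 4.86% in Flox and from 9.67 to 20.2% in HKO, while the Gclc and Keap1 shares overlap between the groups.

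Cbr1 and Cbr3 are neighbouring carbonyl reductase genes that use NADPH to reduce aldehydes, ketones and quinones. Cbr1 (chromosome 16, 93605853 to 93610344) held 62.6, 58.9, 49.6, 50.8 and 50.6 CPM in Flox 1 to 5 and 146, 168, 140, 69.1 and 134 CPM in HKO 1 to 5. Of the HKO livers, 4 lay well over the Flox range and HKO 4 just above it. The log2 fold change was 1.27, or 2.41-fold (95% interval 0.83 to 1.70, SE 0.20, edgeR adjusted p = 0.00337). Cbr3 (chromosome 16, 93683215 to 93690990) held 1.59, 0.588, 0.574, 0.840 and 0.732 CPM in Flox and 7.67, 17.6, 13, 5.76 and 16.7 CPM in HKO. These were 32 to 83 counts per Flox liver and 374 to 1095 per HKO liver, and the groups were far apart. The log2 fold change of Cbr3 was 3.81 (95% interval 2.93 to 4.69, SE 0.40, edgeR adjusted p = 5.06e-04), and both genes passed in all 20 alternatives, with ranges of 1.16 to 1.47 for Cbr1 and 3.12 to 4.15 for Cbr3.

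The paralogs did not rise by the same factor. Cbr3 made up 4.86, 1.94, 2.28, 3.18 and 2.85% of the summed FPKM of both genes in Flox 1 to 5 and 9.67, 17.6, 15.9, 14.4 and 20.2% in HKO 1 to 5. The groups did not overlap, with means of 3.02% ± 1.13 and 15.6% ± 3.93 (SD, n = 5 each). Its exact permutation p of 0.00794 is the lowest that 5 against 5 livers can give (adjusted p = 0.0238 over 3 shares, two-sided). No stretch of 75 bases in any transcript of Cbr1 or Cbr3 occurs in a transcript of another gene in GENCODE M21, so reads of that length or more match only 1 of the genes exactly. Without HKO 4 and HKO 5 the difference was 11.4 points against 12.5 with them, and it did not pass (exact permutation adjusted p = 0.0536). There, 5 against 3 livers allow few assignments, and the adjusted p depends also on the p-values of the other shares. Taken from counts, which do not allow for gene length, the share differed by 6.82 points (exact permutation adjusted p = 0.0238).

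Ephx1 (chromosome 1, 180976210 to 181020904), microsomal epoxide hydrolase, which opens reactive epoxides to diols, held 536, 360, 440, 429 and 352 CPM in Flox 1 to 5 and 565, 720, 623, 390 and 665 CPM in HKO 1 to 5. HKO 4 lay within the Flox range and the other 4 HKO livers above it. The log2 fold change of 0.49 did not pass (95% interval 0.13 to 0.84, SE 0.16, edgeR adjusted p = 0.0795). It passed in 8 of the 20 alternatives, among them DESeq2 (0.49, DESeq2 adjusted p = 0.0293), the fit without HKO 4 (0.61, edgeR adjusted p = 0.0131) and the fit without HKO 4 and HKO 5 (0.59, edgeR adjusted p = 0.0367). Without Flox 1 it was 0.58 (edgeR adjusted p = 0.0398).

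**Figure D3:**
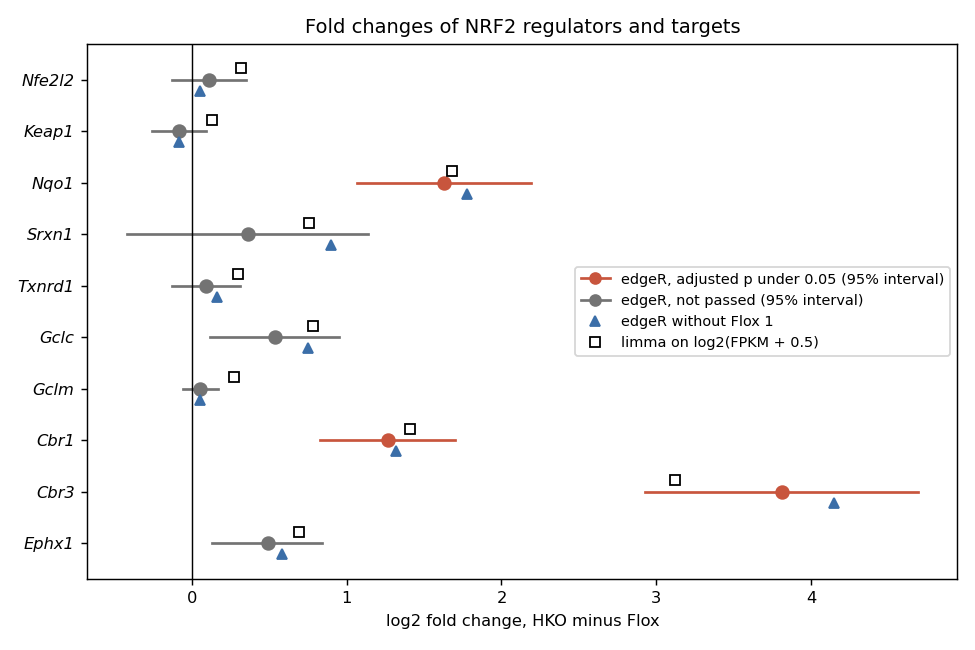
Log2 fold change of each gene, HKO minus Flox, from edgeR with 95% intervals (circles and lines), from edgeR without Flox 1 (triangles) and from limma on log2(FPKM + 0.5) (squares). Nqo1, Cbr1 and Cbr3 lie above 0 in all of these, and Srxn1 moves from 0.36 to 0.90 without Flox 1.

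Single livers stood at the edge of their group in many targets at once. Flox 1 was the highest Flox liver in 7 of the 8 targets, where over all tested genes it was the highest Flox liver in 24.9%, and it also had the highest Me1, at 228 CPM. Its Nfe2l2, at 66.3 CPM, was the lowest of the Flox livers. HKO 4 was the lowest HKO liver in 6 of the 8 targets, against 24.8% of all tested genes, and HKO 2 was the highest in 5. HKO 5 carried at least as many epidermal and muscle transcripts as HKO 4 and was the lowest HKO liver in 0 of the targets. Total counts were 58305490 in Flox 1 and 56018833 in HKO 4, within the range of the other livers, and HKO 4 had the highest TMM factor, 1.16. The part of other tissues, depth or scaling in the positions of these livers was not tested.

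**Figure D4:**
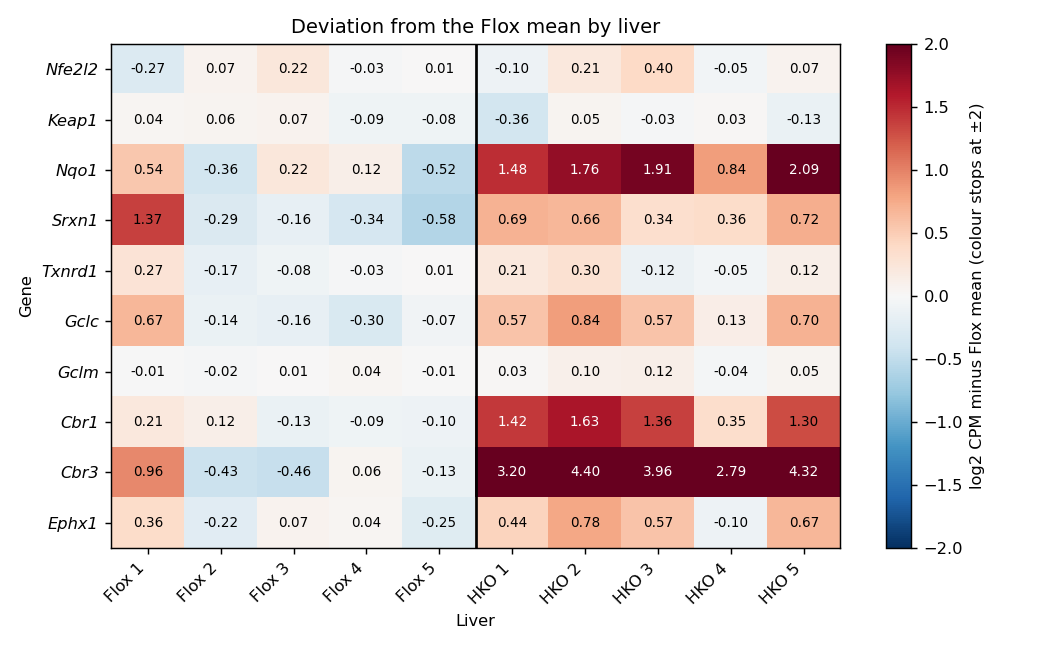
Log2 CPM of each gene in each liver minus the mean of the Flox livers, with blue below and red above it and the value printed in each cell; the black line divides Flox from HKO. Flox 1 is above the Flox mean in 7 of the 8 targets, by 1.37 in Srxn1, and HKO 4 is at 0.35 in Cbr1 where the other HKO livers are at 1.30 to 1.63.

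After each group's mean was subtracted, the log2 CPM of Ephx1 followed that of Nqo1 most closely among the 10 genes (Pearson r = 0.94, Spearman rho = 0.93 over 10 livers), and Cbr3 came next (r = 0.79, rho = 0.75). Keap1 and Nfe2l2 stood at r = 0.01 and 0.14. Leaving out HKO 4 and Flox 5, the livers farthest from the median of Nqo1, gave r = 0.85 for Ephx1, 0.76 for Cbr3 and -0.03 for Cbr1, which was 0.64 with all 10, so the relation of Cbr1 to Nqo1 rests on those livers. The 5 other tested genes most like Nqo1 were Slc39a11, a zinc transporter, at r = 0.98, and Ndufb6 of respiratory complex I, Pigk of the GPI anchor transamidase, the kinase Mapk3 and the calcium uptake regulator Micu2, each at r = 0.94. Of these, only Ndufb6 passed the test between groups, and its log2 fold change was -0.28 (adjusted p by edgeR 0.0292). With 10 livers and 18065 genes such values are a description of these libraries.

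Of 62 other genes of the pathway, 22 were higher in HKO livers, 3 lower and 37 did not pass. The shares were 35.5% higher and 4.84% lower, against 4.86% and 6.4% of all tested genes. The median log2 fold change of the 62 genes was 0.35. On the FPKM scale with limma 39 were higher and 0 lower, and without HKO 4 and HKO 5 the counts were 23 and 1. Of 13 regulators 0 were higher and 1 (7.69%) was lower by edgeR, which is near the 4.86% and 6.4% of all tested genes. At an unadjusted p under 0.05 and by DESeq2, 1 was higher and 1 lower. The lower one was Dpp3, a peptidase that binds KEAP1, at -0.19 on the log2 scale (adjusted p = 0.033 by edgeR, SE 0.05, HKO lower in 5 of 5), and its call was lost without HKO 4 and HKO 5. Gsk3b, a kinase that marks NRF2 for destruction, and the NRF2 partner Mafg did not pass, at 0.27 and -0.16 (edgeR adjusted p = 0.0677 and 0.183). Dpp3 and Mafg turned on the FPKM scale, with means of 5.69 and 10.4 in Flox and 5.8 and 10.9 in HKO.

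Conjugating enzymes had the largest share, with 10 of 13 higher and 0 lower and a median of 0.78 (11 higher and 0 lower at an unadjusted p under 0.05 and by DESeq2). Gsta2, a glutathione transferase, rose from 11.4 ± 3.06 to 50.4 ± 21.5 CPM (adjusted p by edgeR 0.00401; mean ± SD, n = 5 each), with Gsta1 at 3.86 and Gstm1 at 2.48 on the log2 scale (adjusted p by edgeR 0.00231 and 0.0019). These families hold near-identical copies among which reads could be split. Ugt2b35, a glucuronosyltransferase, had a log2 fold change of 0.75 (adjusted p by edgeR 0.00664). None of these 4 genes overlapped between the groups.

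Efflux and iron genes had 5 of 8 higher and 0 lower, with 6 higher by DESeq2 and 4 higher without HKO 4 and HKO 5. Abcc4, an exporter of conjugates and cyclic nucleotides across the basolateral membrane, had a log2 fold change of 2.88 and the haem transporter Slc48a1 one of 0.57 (adjusted p by edgeR 4.41e-04 and 0.00407), and neither overlapped between the groups. The ferritin chains Fth1 and Ftl1, which store iron, stood at 0.76 and 0.60 (adjusted p by edgeR 0.00985 and 0.0114), and in each HKO 4 alone of its group was inside the Flox range. Among 11 oxidoreductases and hydrolases 3 were higher and 0 lower, with 7 higher at an unadjusted p under 0.05 and 5 by DESeq2. They were Htatip2 at 1.15, the coumarin hydroxylase Cyp2a5 at 1.82, whose reads could be split with its close copy Cyp2a4, and the prostaglandin reductase Ptgr1 at 1.29 (edgeR adjusted p = 6.46e-04, 0.00922 and 0.0332).

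Genes of NADPH supply and the pentose phosphate pathway, and genes that handle peroxides, moved both ways. Of 5 genes of NADPH supply or the pentose phosphate pathway, Pgd and Tkt rose. Their log2 fold changes were 0.79 and 0.84 (adjusted p by edgeR 0.00509 and 0.007). Tkt, of the pentose phosphate pathway, does not itself make NADPH. HKO 4, at 43.7 and 112 CPM, lay inside the Flox ranges of Pgd and Tkt, which Flox 1 topped at 43.9 and 122 CPM. G6pdx, which makes NADPH in the same pathway, did not pass, at 0.47 (edgeR adjusted p = 0.108). Idh1, the cytosolic isocitrate dehydrogenase, fell by 0.34 (edgeR adjusted p = 0.00632), in 5 of 5 HKO livers. Of 12 glutathione and thiol genes 2 rose and 1 fell. Gpx2, a glutathione peroxidase that was barely expressed in Flox at 0.135 ± 0.0683 CPM, reached 0.984 ± 0.629 CPM (adjusted p by edgeR 0.008; mean ± SD, n = 5 each), Gpx4 rose by 0.69 and the peroxiredoxin Prdx6 fell by 0.26 (edgeR adjusted p = 0.0189 and 0.0226). Without HKO 4 and HKO 5 the call of Prdx6 was lost. On the FPKM scale with limma none of the genes that fell was called lower.

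**Figure D5:**
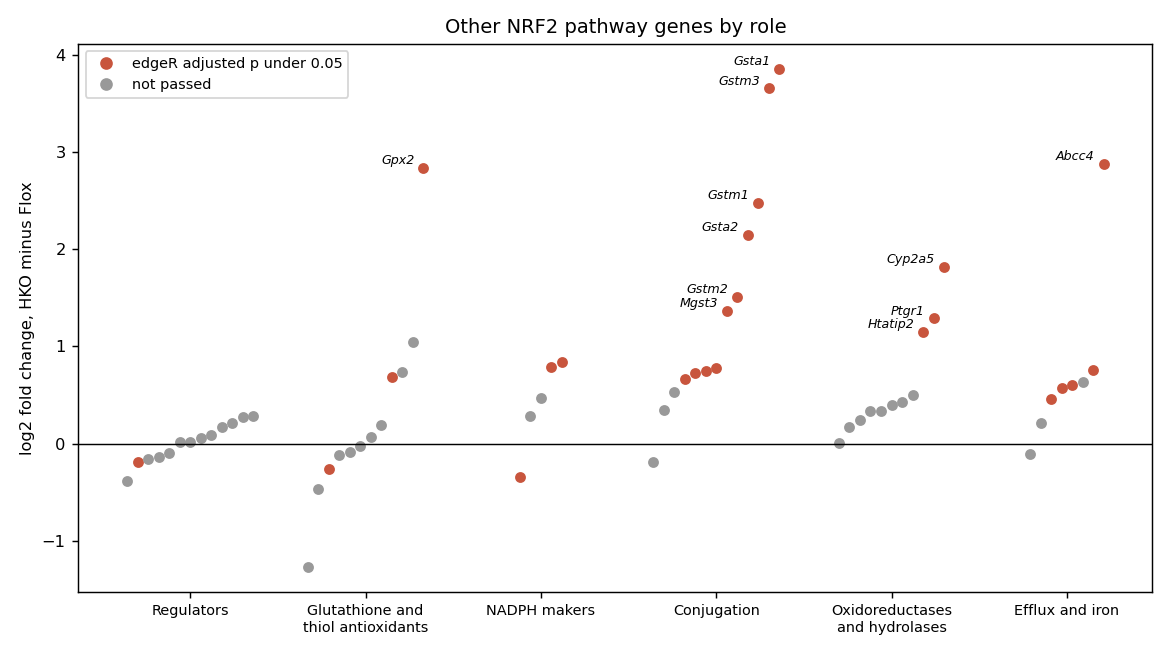
Log2 fold change, HKO minus Flox, of the 62 other pathway genes by role (1 point a gene, ordered within each role by value). Red points passed the edgeR test at an adjusted p under 0.05, and those beyond 1 are named; conjugation has 10 red points above 0 and the regulators have none above 0.

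Nqo1, Ephx1 and several conjugating enzymes also answer to the xenobiotic receptors CAR, PXR and AhR, so 16 genes that report on these receptors were read beside them. Of the 15 tested, 0 were higher and 2 (13.3%) lower by edgeR, against 4.86% and 6.4% of all tested genes. A list of 15 genes is too short to tell such shares apart. At an unadjusted p under 0.05, 0 were higher and 3 lower, and by DESeq2 0 were higher and 2 lower. With limma on the FPKM scale 1 was higher and 2 lower. Their median log2 fold change was 0.40, close to the 0.42 of the 10 genes. The lower genes were Por, the electron donor of cytochromes P450, at a log2 fold change of -0.75, and Alas1, which starts haem synthesis, at -1.01 (adjusted p by edgeR 0.0241 and 0.025), both without overlap between the groups. Both lost their call without HKO 4 and HKO 5. The other 7 CAR and PXR genes did not pass and lay on both sides of 0. Cyp2b9 stood at 1.52 (95% interval -0.11 to 3.15, edgeR adjusted p = 0.214), Cyp2c55 at 0.85, Cyp2b10 at 0.47, Cyp3a11 at 0.40 and Slco1a4 at 0.15. Below 0 were Cyp3a13 at -0.34 and Gadd45b at -0.60. Of the AhR genes, those with the smallest p were Cyp1b1 at 0.77 (95% interval -0.04 to 1.58, edgeR adjusted p = 0.206) and Nqo2, a relative of Nqo1, at 0.13 (95% interval -0.04 to 0.30, edgeR adjusted p = 0.315). The median log2 fold change of the 6 AhR genes tested was 0.56, and 0 of them passed by edgeR. The difference between this list and the NRF2 genes was not tested.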

How the data were processed

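RNA was read as paired 150 bp libraries of polyadenylated liver RNA, with a strand mark, per the labels' protocols. The authors deposited whole-number read counts and FPKM per gene and liver, per the file headers. Per the submitters' processing notes, edgeR, DESeq2, StringTie 2.1.6, HISAT2 2.2.1 and cutadapt 1.9 were used, with no role stated for any of them. No source used here names the build. The start and end of 8 of the 10 genes equal those in GENCODE M21 (GRCm38), and coordinates are printed as deposited.

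Counts were tested with edgeR 4.0.16 in R 4.3.3 (filterByExpr, TMM, robust quasi-likelihood test, HKO minus Flox, two-sided, Benjamini and Hochberg adjustment over all tested genes, threshold 0.05). FPKM served to compare genes and for 3 within-library shares, tested by exact permutation of 252 assignments. DESeq2 1.42.0, limma 3.58.1 on log2(FPKM + 0.5) and log2(FPKM + 0.1), other scalings and filters, removal of length and GC trends, and left-out livers were alternatives. The tests were tried on simulated data first. The labels do not say that livers are from separate mice, so p-values measure the spread between these libraries.

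The genes and lists were chosen with earlier results of these data known. Beyond the 10 genes and Me1, up to 4 genes with the smallest p that passed were named in each role, and 2 that did not pass where fewer than 2 passed. The 7 CAR and PXR genes that did not pass, and G6pdx, are given outside this rule.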

Additional observations from a re-analysis of the deposited data

Results flagged for a closer look

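In groups of 5 livers, a liver was singled out when its gap to the nearest other liver exceeded 0.71 of the group's range. Of 76 groups examined over the genes named by the rule above and the 3 shares, 9 were singled out. The genes most like Nqo1 and those given outside the rule were not examined. Chance gives about 1 in 20 for a single group, but these groups share the same livers and are not independent.

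Flox 1 was the highest Flox liver in 6 of these. The gap in log2 CPM was 0.726 of the range in Me1, 0.789 in Srxn1, 0.762 in Gclc, 0.774 in Gpx4, 0.782 in Tkt and 0.774 in Cyp1b1. HKO 4 was the lowest HKO liver in the other 3, with 0.745 in Cbr1, 0.733 in Gpx4 and 0.78 in Gstm1.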

How the results depend on the processing

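Of 380 alternative values, 321 were unchanged, among them all 20 each for the fold changes of Me1, Nqo1, Cbr1, Cbr3 and Nfe2l2. A fold change or share was unchanged where it kept its direction and its side of the threshold. A count of genes has neither, and was unchanged where it stayed within a set ratio of its main value. Keap1 turned to 0.13 in both limma fits on FPKM. These fits, with 0.5 and 0.1 added, gave 3212 and 3253 genes higher and 396 lower, 39 other pathway genes higher and 0 lower, 1 receptor gene higher, and log2 fold changes past the threshold of 0.30 and 0.31 for Txnrd1, 0.78 for Gclc, 0.27 for Gclm and 0.69 for Ephx1. The median of all genes was 0.145 and 0.209 in them. Quantile normalization with voom gave 0 other pathway genes lower, 1 receptor gene higher and 1 lower, and calls for Gclc (0.82), Gclm (0.22) and Ephx1 (0.76). DESeq2 gave 1642 genes higher and called Gclc (0.54) and Ephx1 (0.49). No filter left 1 receptor gene lower, and removing length and GC trends called Ephx1 (0.54). Without HKO 4 and HKO 5, 454 genes were higher and 539 lower, 1 other pathway gene and 0 receptor genes were lower, Ephx1 was called (0.59) and the Cbr3 share differed by 11.4 points and was not called. The cause of these changes was not tested.

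With each liver left out in turn, 498 to 1058 genes were higher and 691 to 1162 lower, 17 to 26 other pathway genes were higher and 1 to 3 lower, and 0 to 1 receptor genes were higher and 0 to 2 lower. Srxn1 ran from 0.21 to 0.90, Gclc from 0.46 to 0.75 and Ephx1 from 0.41 to 0.61, the Gclc share from 4.99 to 8.07 points and the Keap1 share from -3.87 to -1.67 points. No paired analysis was possible because the labels give the groups no shared replicate numbers. Cbr3 had as few as 32 counts in a Flox liver, which limits the precision of its fold change.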

Other observations

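Cbr1 and Cbr3 lie on chromosome 16 with 72871 bases between them, and the genes around them were read after their values had been seen. Within 200000 bases of the pair, 6 other genes were tested and none passed, the smallest edgeR adjusted p being 0.501. Setd4, next to Cbr1, had a log2 fold change of -0.13 and Dop1b, next to Cbr3, also -0.13 (SE 0.23 and 0.14, edgeR adjusted p = 0.778 and 0.599), Morc3 stood at 0.06 and Chaf1b at 0.16 (edgeR adjusted p = 0.795 and 0.769).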
